A study of Mus musculus with 6 samples.

Results

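Organoid AEC1-like cells were the epithelial cells in alveolar organoids that carried much Hopx RNA, which codes for a homeodomain protein of type 1 alveolar epithelial cells (AEC1s). They were chosen from measured values. A barcode, the tag that marks the RNA of 1 droplet, counted as epithelial with at least 10000 unique molecular identifiers (UMIs, each counting 1 captured RNA molecule) and at least 1 UMI of Epcam, an epithelial adhesion protein. It was AEC1-like when Hopx reached at least 1000 counts per 1000000 of its own UMIs (CPM), while Cldn4 and Sfn, genes of the transitional state, stayed below 1000 CPM together and Mki67 and Top2a, genes of dividing cells, below 200 CPM together. The rule found 205 of the 1975 epithelial barcodes in organoids grown with normal fibroblasts (FBs) and 180 of 1655 in organoids grown with fibrogenic FBs. These 385 barcodes were among 14335 in the 2 organoid libraries and 33286 in the 6 libraries of the series. They are described against AEC2-like barcodes of the same libraries, which were epithelial, had Sftpc (surfactant protein C) of at least 20000 CPM and had Hopx below 1000 CPM (1393 with normal and 960 with fibrogenic FBs). Hopx, Sftpc, Cldn4, Sfn, Mki67, Top2a and Epcam chose the barcodes, so their values describe the choice.

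Both organoid cultures combined tomato-labelled type 2 alveolar epithelial cells (AEC2s) with GFP-sorted Pdgfra+ lung FBs. The AEC2s came in both cultures from SpcCreER mice in which tamoxifen had switched on the label, so the culture began with cells of the Sftpc lineage, and the labels call the AEC2s of both cultures normal. The FBs came from Pdgfra-GFP reporter mice given 1 oropharyngeal dose of PBS (normal FBs) or of bleomycin at 2 U/kg (fibrogenic FBs) and harvested on day 14. Cells of 3 mice per cell type were pooled, mixed with matrigel and cultured for 2 weeks on transwell inserts before dissociation with Accutase and trypsin. Each condition was 1 library. There is therefore no replicate check of any difference between the conditions, no test was run, and all intervals given are exact 95% Poisson or Clopper-Pearson intervals that cover counting error only.

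AEC1s are the thin, widely spread cells across which the lung exchanges gas, and AEC2s are the cuboidal cells that make and store surfactant. AEC2s also act as progenitors: they divide, and after injury or in organoids some pass through a transitional state and take on AEC1 genes while losing surfactant genes. AEC1s are known for the receptor AGER, the water channel AQP5, caveolae, a broad basement membrane fused with that of capillaries, and growth factors that act on capillaries and neighbouring cells.

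The 2 organoid libraries differed in depth, with a median of 36841 UMIs per barcode with normal FBs and 4289.5 with fibrogenic FBs, where many barcodes were shallow. Above the limit of 10000 UMIs the AEC1-like and AEC2-like classes were each of like depth in both libraries, with medians of 32357 and 33192.5 UMIs in AEC1-like barcodes and 45215 and 44281.5 in AEC2-like barcodes (normal and fibrogenic, the order kept throughout), whereas FB barcodes had 51388 and 67623. Mitochondrial genes took a median of 5.25% and 5.35% of the UMIs of AEC1-like barcodes. The libraries shared 13 barcode sequences, none of them AEC1-like. In the 4 libraries of sorted GFP+ lung cells the same rule found 2 barcodes, both after repetitive bleomycin. The Y-linked gene Ddx3y stood at 45.9 and 49.1 CPM and Xist at 0 and 0.296 CPM in AEC1-like barcodes, so these sex-linked genes did not separate the cultures.

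AEC1-like barcodes made up 10.4% (9.07 to 11.8) of epithelial barcodes with normal FBs and 10.9% (9.42 to 12.5) with fibrogenic FBs, 2 shares whose counting intervals overlapped. Epithelial barcodes so defined included some rich in the fibrillar collagens Col1a1, Col1a2 and Col3a1. Among those with less than 1000 CPM of these together the shares were 11.8% and 13.2%. For every 100 AEC2-like barcodes there were 14.7 and 18.8 AEC1-like ones. The Hopx limit cut through a continuous range. In the normal library 22 epithelial barcodes lay between 800 and 1000 CPM of Hopx and 29 members between 1000 and 1250, and in the fibrogenic library these numbers were 19 and 14. The highest barcodes below the limit had 988.6 and 969.9 CPM of Hopx, and the lowest members 1000.2 and 1016.3. Barcodes just below the limit had a median Ager of 1851 and 1611 CPM and those just above it 2228 and 2097. Their median Clic5, another AEC1 gene, was 185 and 139 CPM below and 235 and 86.3 above the limit, so that in the fibrogenic library it ran the other way. Their median Sftpc was 55364 and 62974 below and 18707 and 38188 above the limit. Of barcodes with high Hopx, the Cldn4 and Sfn limit removed 14 of 223 and 28 of 209, and the limit on dividing cells removed 4 and 1 more. The class is thus a range of Hopx, and a limit of 500 or 2000 in place of 1000 gave shares of 13.5% and 14.0% or of 6.68% and 7.25%.

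**Figure D1:**
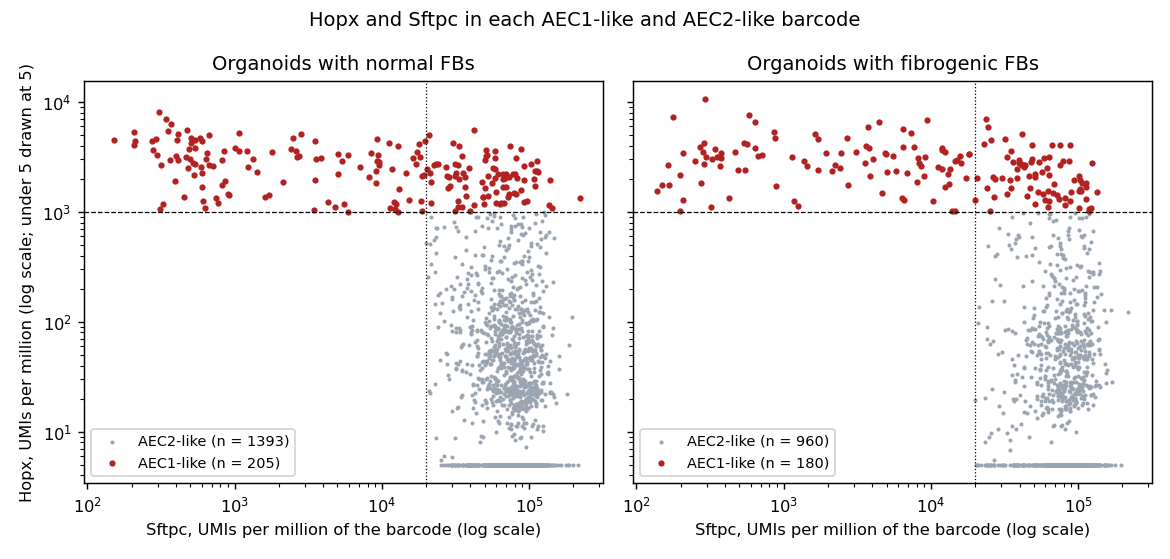
Each point is 1 barcode, with Sftpc on the horizontal and Hopx on the vertical axis, both as CPM on log scales, in the normal (left) and fibrogenic (right) library. AEC1-like barcodes (red, 205 and 180) lie above the dashed limit of 1000 CPM of Hopx and spread over the whole range of Sftpc, past the dotted line at 20000, while AEC2-like barcodes (grey, 1393 and 960) lie below the Hopx limit and to the right of that line.

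AEC1 genes other than Hopx were also higher in AEC1-like barcodes. This describes the members and is no test, since members and lists were chosen with earlier results of these data known. Of 26 listed AEC1 genes, 24 had at least 50 UMIs in AEC1-like and AEC2-like barcodes together in each library, and all 23 of these that the rule did not use were more than 2-fold higher in AEC1-like barcodes of both libraries. In the normal library 6.74% and in the fibrogenic library 6.46% of the 13220 genes compared were as much higher. Over these 23 genes the median log2 ratio of AEC1-like over AEC2-like was 2.98 and 3.05. Over all genes 5.53% were as much higher in both libraries and 7.02% as much lower (9.55% and 9.53% in each library), and the median log2 ratio was 0.03 and 0.05. Ratios were taken on the CPM of UMIs summed over a class after adding 1 CPM, which understates the change of low genes. The 2 genes below the minimum were Igfbp2 and Cyp2b10. Igfbp2, a secreted binding protein that marks terminally differentiated AEC1s, had 13 and 27 UMIs in all members together, in 11 and 7 of them, so this marker of mature AEC1s was near 0.

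Ager, which codes for the receptor RAGE on the basal side of AEC1s, was detected in every member, at 4944 (4895 to 4993) and 4706 (4654 to 4758) CPM against 579 and 502 in AEC2-like barcodes. Its lowest member had 482 and 646 CPM, the median 4495 and 4929 and the highest 14709.8 and 12633, where AEC2-like barcodes had medians of 518 and 443. Ager RNA was thus present in both classes and differed in amount. Clic5, a chloride channel family protein tied to the cell cortex, separated the classes more, at 784 (765 to 804) and 734 (713 to 754) CPM against 9.38 and 7.04, a log2 ratio of 6.24 and 6.51. Rtkn2 stood at 245 and 228 CPM against 3.20 and 3.47 (log2 5.87 and 5.68), and Akap5, a kinase anchoring protein, at 851 and 921 CPM against 23.4 and 30.7 (log2 5.12 and 4.86). FB barcodes, which had no Epcam UMI, at least 10000 UMIs and at least 1000 CPM of fibrillar collagen (1755 and 1799 barcodes), held these 3 genes at or below 1.14 CPM. Pmp22, a membrane protein of the claudin superfamily, had log2 ratios of 4.77 and 4.21 (6.49 and 5.86 without the collagen-rich barcodes described below) and Cav1, the coat protein of caveolae, 4.49 and 4.09 (4.76 and 4.79 without them). At the other end of the list were Anxa3 at 1.12 and 1.18, Aqp5 at 1.21 and 1.62 and Pdpn, the podoplanin of the apical membrane, at 1.61 and 1.39; these 3 had 419, 816 and 35.7 CPM in AEC2-like barcodes of the normal library. Pdpn is also made by FBs, whose barcodes had 101 and 153 CPM.

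AEC1 genes were spread over the members and not carried by a few of them. When each barcode was thinned to 10000 UMIs, so that depth was equal, the median AEC1-like barcode held UMIs of 19 of the 25 AEC1 genes other than Hopx in both libraries, with a range from 10 to 23, and the median AEC2-like barcode held 8. Transitional barcodes, with Cldn4 and Sfn at or above the limit and few cell cycle UMIs, held a median of 9 and 10 and FB barcodes, which should lack most of these RNAs, 4 and 5. Without thinning the medians were 21 for AEC1-like and 13 for AEC2-like barcodes in both libraries. Single genes differed in how widely they were detected at the equal depth. Akap5 was found in 98.0% and 97.8% of members and 0.912% and 1.00% of FB barcodes, and Clic5 in 94.6% and 88.3% of members. Rtkn2 was found in 67.3% and 64.4% and Cav1 in 40.0% and 32.8%, against 1.08% and 0.312% of AEC2-like and 4.56% and 7.17% of FB barcodes for Cav1.

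**Figure D2:**
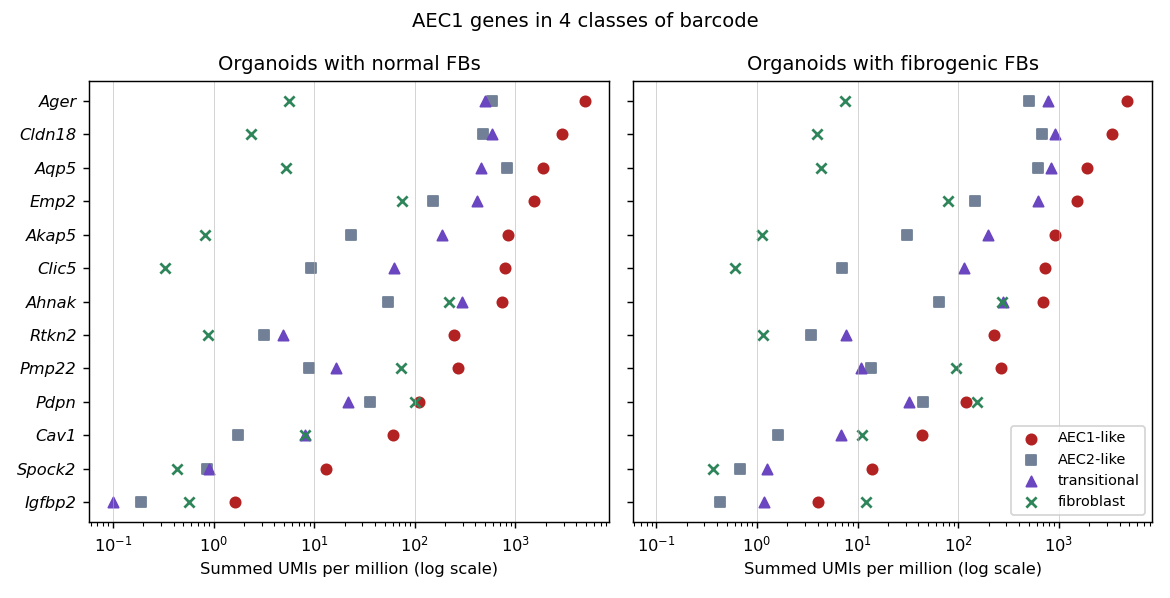
Summed CPM (log scale) of 13 AEC1 genes in AEC1-like (red circles), AEC2-like (grey squares), transitional (purple triangles) and FB (green crosses) barcodes of the normal (left) and fibrogenic (right) library. For each gene from Ager to Spock2 the AEC1-like value lies to the right of the AEC2-like value in both libraries, Pdpn is as high in FB barcodes, and Igfbp2 stays below 4 CPM in AEC1-like barcodes.

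Promoters are shown here because genes of the list were higher together and because TEAD factors bind DNA for YAP and TAZ, whose targets are described below. Of the 26 listed AEC1 genes, 22 had a promoter in the RefSeq table (build GRCm38.p6, from 250 bases before to 50 after the start of transcription). The TEAD core GGAATG, searched on both strands, was present in promoters of 3 of these 22 genes (13.6%), namely Ahnak, Cyp2b10 and Pmp22, and in 16.6% of 27025 genes with a promoter of this length. The forkhead core TGTTTAC, also searched on both strands, was present in 2 of 22 (9.09%) and in 4.05% of all. Of 16 listed AEC2 genes with a promoter, 5 (31.25%) had the TEAD core and 1 (6.25%) the forkhead core. Capitals mark a TEAD core on either strand (GGAATG or CATTCC), and the absence of a match says only that these letters are not in this window. The promoters are those of Ager (chr17:34597600-34597899, plus strand), Ahnak (chr19:8989034-8989333, plus strand) and Pmp22 (chr11:63128732-63129031, plus strand, the first of its 4 listed start sites).
Ager: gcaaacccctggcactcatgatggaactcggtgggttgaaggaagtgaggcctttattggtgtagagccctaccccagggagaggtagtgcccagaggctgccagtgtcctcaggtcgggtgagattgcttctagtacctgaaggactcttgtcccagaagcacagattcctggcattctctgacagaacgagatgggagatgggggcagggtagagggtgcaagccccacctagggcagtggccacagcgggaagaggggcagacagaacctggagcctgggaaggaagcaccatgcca
Ahnak: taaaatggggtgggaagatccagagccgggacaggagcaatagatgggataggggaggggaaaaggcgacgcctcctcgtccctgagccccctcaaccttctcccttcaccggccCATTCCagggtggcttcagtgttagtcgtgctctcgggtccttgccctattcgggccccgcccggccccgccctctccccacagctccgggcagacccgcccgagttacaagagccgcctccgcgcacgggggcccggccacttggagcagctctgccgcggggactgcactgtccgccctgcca
Pmp22: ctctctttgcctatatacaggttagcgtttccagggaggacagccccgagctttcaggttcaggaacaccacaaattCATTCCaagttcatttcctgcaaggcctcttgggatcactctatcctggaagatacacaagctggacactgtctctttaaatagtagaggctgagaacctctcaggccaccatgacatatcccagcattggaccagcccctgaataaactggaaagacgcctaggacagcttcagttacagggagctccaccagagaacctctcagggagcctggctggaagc

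AEC2 genes were lower in AEC1-like barcodes, but unequally. Of the 19 listed AEC2 genes other than Sftpc, 14 were more than 2-fold lower in both libraries (7.02% of all genes), none was as much higher, and their median was -1.91 and -2.06 on the log2 scale. Lyz2, a lysozyme that AEC2s secrete, stood at 496 and 644 CPM against 6387 and 7697 (log2 -3.68 and -3.58). Sftpa1, a surfactant protein that binds carbohydrates, stood at 176 and 94.1 CPM against 2116 and 1317 (log2 -3.58 and -3.79), and the chemokine Cxcl15 at 989 and 438 CPM against 10314 and 7065 (log2 -3.38 and -4.01). Lamp3 and Abca3, proteins of the lamellar bodies that store surfactant, had log2 ratios of -2.62 and -3.06 and of -1.54 and -1.56. Sftpd, Lpcat1 and Slc31a1 did not reach a fold of 2, with ratios of -0.80 and -0.80, -0.79 and -0.85 and -0.51 and -0.38. Ctsh, a protease that trims surfactant protein precursors, and Muc1, an apical mucin, were near level at 0.10 and 0.37 and 0.28 and 0.10. At equal depth the median member held UMIs of 10 and 9.5 of the 19 AEC2 genes and the median AEC2-like barcode of 16.

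Sftpc, which the rule left free in AEC1-like barcodes, divided them. With normal FBs 64 members (31.2%) had under 2000 CPM of Sftpc, 51 had 2000 to 20000 and 90 (43.9%) had at least 20000, the limit used for AEC2-like barcodes. With fibrogenic FBs these numbers were 47 (26.1%), 54 and 79 (43.9%). In the lowest of these bands the median Sftpc was 539 and 377 CPM. FB barcodes, of cells not known to make it, had 324 and 284 CPM, a summed level and not a median over barcodes. At 10000 UMIs Sftpc was still found in 95.5% and 91.4% of FB barcodes. In the highest band Sftpc summed to 60973 and 60849.9 CPM, 79.2% and 79.7% of the AEC2-like level. The highest bands were close to equal in share in the 2 libraries.

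The other AEC2 genes stood at unlike fractions of their AEC2-like level in the band with most Sftpc, in which the level of Sftpc was set by the choice of the band. There Lyz2 stood at 14.8% and 17.3% of its AEC2-like level, Sftpa1 at 14.8% and 14.6%, Cxcl15 at 18.3% and 12.2% and Chil1, a chitinase-like protein, at 19.4% and 14.8%. The median member of this band had 90.7 and 58.8 CPM of Lyz2, where the AEC2-like medians were 4296 and 5269.6, and 15 and 13 of its members reached 1000. No member of the other bands reached 1000. At 10000 UMIs Lyz2 was found in 49.3% and 45.0% of all members, 34.8% and 34.9% of FB barcodes and 90.8% and 92.7% of AEC2-like barcodes. Sftpb was at 38.1% and 29.2% and the phosphate carrier Slc34a2 at 36.1% and 30.3%. Napsa, a protease of surfactant protein processing, was at 63.0% and 68.0%, and Etv5, a transcription factor of AEC2s, at 86.4% and 87.3%. Lyz2 of at least 1000 CPM was held by 999 and 726 AEC2-like barcodes. No doublet caller was run, and whether the members with this much Lyz2 were droplets with more than 1 cell was not tested.

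Several AEC1 genes, chosen with their values known, were lower in the band with the most Sftpc. Clic5 stood at 1213 and 978 CPM in the band with least Sftpc and 504 and 425 in the band with most, and Pmp22 at 496 and 389 and then 155 and 163. Ager stood at 7091 and 4989 and then 3592 and 3950.5 CPM, and Rtkn2 at 357 and 256 and then 176 and 183. Even so, each of these genes was higher in the high band than in AEC2-like barcodes, with Rtkn2 at 3.20 and 3.47 CPM there. So were 4 genes of the transitional and growth arrest lists, also chosen with their values known. S100a6, a calcium-binding protein, stood at 3867 and 4564 CPM against 1176 and 841 in the high band, and Clu, the secreted chaperone clusterin, at 1505 and 2387 against 508 and 713. Cdkn1a, the p21 inhibitor of the cell cycle, stood at 746 and 889 against 245 and 381, and Cdkn2a at 66.8 and 73.1 against 13.8 and 18.5. Nkx2-1, the factor that marks lung epithelium, differed little, at 262 and 225 against 239 and 266.

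**Figure D3:**
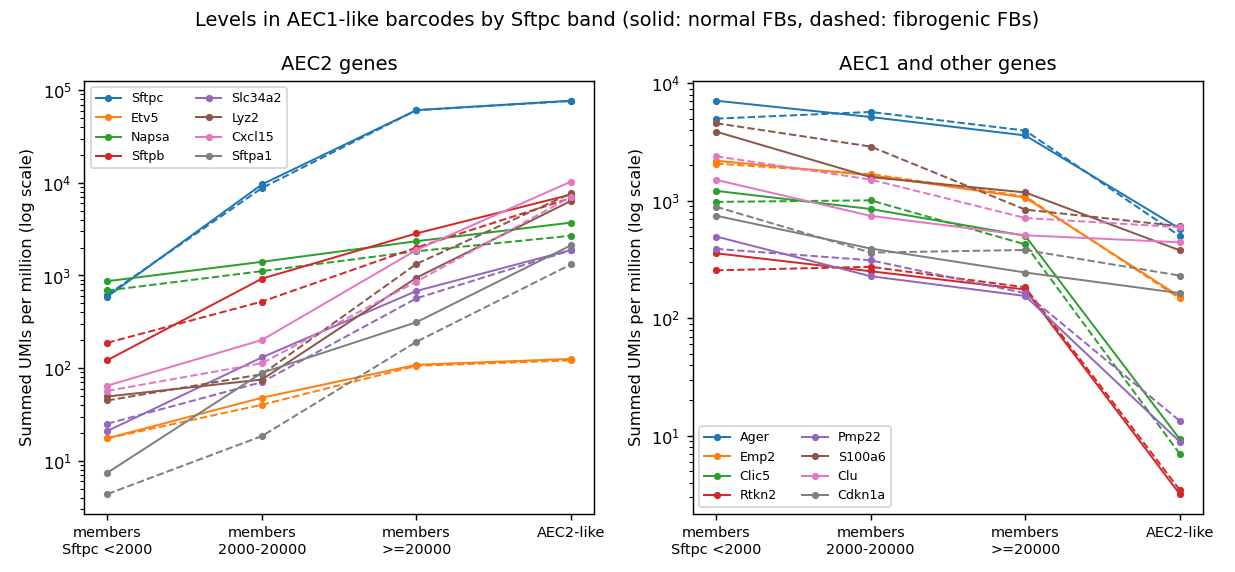
Summed CPM (log scale) in AEC1-like barcodes with Sftpc below 2000, from 2000 to 20000 and of at least 20000 CPM, and in AEC2-like barcodes, for AEC2 genes (left) and AEC1 and other genes (right); solid lines are the normal and dashed lines the fibrogenic library. Sftpc and Etv5 are nearly level between the highest band and AEC2-like barcodes, whereas Lyz2, Cxcl15 and Sftpa1 step up between them and Clic5 and Rtkn2 step down.

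Genes of the membrane and of transport formed further groups. Over all genes, 5.53% were more than 2-fold higher and 7.02% as much lower in AEC1-like barcodes of both libraries. Of 12 genes of caveolae and related membrane proteins, 8 were more than 2-fold higher in AEC1-like barcodes of both libraries, with a median log2 ratio of 2.24 and 1.98. FBs also make caveolae, and 113 and 78 AEC2-like barcodes, with a median of 106646 and 104110 UMIs, reached the 1000 CPM of fibrillar collagen that defined FB barcodes; without them and the 12 such AEC1-like barcodes the list's median was 2.67 and 2.51. Beside Cav1 these included Cav2 (2.76 and 2.51) and the coat proteins Cavin2 (3.03 and 2.68) and Cavin1 (2.07 and 1.77), and the scaffold protein Ehd2 (2.40 and 2.19). The 3 subunits of the epithelial sodium channel, through which the lung absorbs fluid, were all higher. Scnn1a stood at 314 and 336 CPM against 33.5 and 54.5, Scnn1b at 246 and 249.6 CPM against 14.4 and 26.9 and Scnn1g at 146 and 154 CPM against 5.40 and 7.67. Over the whole list of ion and water transport, 6 of 14 genes were higher and 2 lower, the latter Atp1b1, a subunit of the sodium pump (-1.10 and -1.02), and the potassium channel Kcnq1 (-1.16 and -1.47), and the list's median was -0.21 and -0.37. Its sign depended on the low genes, since among genes with at least 500 UMIs the median was 0.43 and 0.57. Clic3, another member of the Clic family, had ratios of 3.93 and 3.51. Cftr had 6 and 5 UMIs in all members.

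Of 19 basement membrane genes 8 were more than 2-fold higher in both libraries and 1 lower. For each list of this paragraph, 5.53% of all genes were as much higher and 7.02% as much lower. The 1 lower basement membrane gene was not above that share. Col4a3, a collagen chain of the barrier shared with capillaries, stood at 318 (305 to 330.2) and 347 (333 to 362) CPM against 9.48 and 14.5, and its partner Col4a4 at 362 and 389 CPM against 15.8 and 21.9. The more widely used chains Col4a1 and Col4a2 were near level (0.37 and 0.28, and 0.45 and 0.31). Lama3 (3.14 and 2.63), a laminin chain, Npnt (3.06 and 2.98), an integrin ligand, and Agrn (2.38 and 2.59) were also higher, and Lamb1 was lower (-1.95 and -1.18, and -1.92 and -1.67 without the collagen-rich barcodes of both classes). FB barcodes had 0.387 and 0.816 CPM of Col4a3 and 144 and 133 of Lamb1. Of 16 junction genes 5 were higher, among them Cldn18, the claudin of alveolar tight junctions, at 2886 and 3327 CPM against 477 and 679.7, and Tjp1 (2.30 and 2.31) and Ocln (2.09 and 2.00), while Cdh1 was near level (0.45 and 0.22). Of 22 genes of the actin cytoskeleton 6 were higher, led by Msn, moesin, which links actin to the membrane (2.42 and 2.30), and the annexin Anxa5 (1.63 and 1.73).

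AEC1-like barcodes carried many RNAs for secreted signals. Of 20 genes compared, 13 were more than 2-fold higher in both libraries (5.53% of all genes) and 1 was lower (7.02%). Their median was 1.90 and 1.92. Vegfa, which capillaries need, stood at 332 and 314 CPM against 88.4 and 102, and Pdgfa, the ligand of the receptor by which the FBs were sorted, at 481 and 521 CPM against 47.4 and 67.2. Guidance signals of the semaphorin family were higher, with Sema3e at 4.08 and 4.01, Sema3b at 3.87 and 3.96 and Sema3a at 3.85 and 4.11 (5.10 and 4.87 without the collagen-rich barcodes). Wnt7a (3.45 and 3.83) and Wnt3a (3.25 and 3.60) were near absent from AEC2-like barcodes, and Wnt3a had 54 and 47 members with a UMI. Shh stood at 47.2 and 47.0 CPM against 6.79 and 9.29. Il33, an alarm cytokine, was the gene that was lower, at 69.4 and 38.5 CPM against 315 and 276.

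Among targets and factors of YAP and TAZ, which respond to cell spreading, 9 of 16 were more than 2-fold higher in both libraries. Over all genes 5.53% were as much higher. None of the 16 was as much lower, and the list's median was 1.50 and 1.21. Transitional barcodes held more of these genes in sum, at 4123 and 4148 CPM against 1598 and 1719 in AEC1-like barcodes. The leading genes over AEC2-like barcodes were Ajuba (2.75 and 2.89), Nt5e (2.55 and 2.38), F3 (2.17 and 1.87) and Ccn2 (1.76 and 1.76). Without the collagen-rich barcodes F3 had 2.34 and 2.76 and Ccn2 2.69 and 3.01. The factor Tead4 was also higher (2.14 and 2.33), while Yap1 itself was near level (-0.01 and 0.05). Of 18 genes of the TGF-β pathway, 2 were higher (5.53% of all genes), Tgfb2 at 145 and 155 CPM against 7.53 and 7.63 and Itgb6, an integrin chain that activates latent TGF-β, at 425 and 479.6 CPM against 24.8 and 32.7. Pmepa1, a feedback target, was lower (-1.04 and -1.24, and -0.89 and -1.31 without the collagen-rich barcodes). Among BMP genes 4 of 14 were lower (7.02% of all genes) and none higher. They were Id1 (-2.17 and -1.94) and Id2 (-1.72 and -1.64), which BMPs induce, and Bambi (-1.78 and -2.82) and Grem1 (-2.65 and -2.44), which restrain BMP signals. Grem1 stood at 278 and 236 CPM in FB barcodes, and its ratio was -0.09 and -0.83 without the collagen-rich barcodes, whereas that of Bambi was -1.99 and -3.10 and that of Id1 -2.30 and -2.71. Id3, which BMPs also induce, had ratios of -0.95 and -0.04, and without those barcodes it was more than 2-fold higher in both libraries (1.54 and 1.15).

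Lipid synthesis supplies surfactant. Of 22 genes of fatty acid and sterol metabolism 8 were more than 2-fold lower in both libraries and none higher (median -0.83 and -0.92). Over all genes 7.02% were as much lower. Fabp5, a fatty acid binding protein, stood at 631 and 254 CPM against 5351 and 3406 and the uptake receptor Cd36 had log2 ratios of -3.16 and -3.64. Elovl1 (-1.99 and -2.11), Fasn (-1.61 and -2.24) and Scd1 (-1.31 and -1.49) were also lower, whereas the cholesterol genes Hmgcs1 (0.37 and 0.42) and Idi1 (0.44 and 0.58) and the regulator Srebf2 (-0.01 and 0.08) were near level. Among the 27 lung regulators other than Hopx 1 was higher (5.53% of all genes), Foxa2 (1.03 and 1.01, and under a fold of 2 at 0.99 and 0.93 without the collagen-rich barcodes), and 7 were lower, with Cebpa (-2.21 and -2.53), a factor of AEC2 maturity, Etv4 (-2.68 and -2.14) and Sox9 (-1.55 and -1.92) among them. Nkx2-1 did not reach a fold of 2 (0.66 and 0.76). Cell cycle genes other than those of the rule were lower in 10 of 12 cases; members were limited in Mki67 and Top2a and AEC2-like barcodes were not.

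Of 18 genes of p53 and senescence, 5 were more than 2-fold higher in both libraries. For each list of this paragraph, 5.53% of all genes were as much higher and 7.02% as much lower. Cdkn2b, the p15 inhibitor of the cell cycle, stood at 392 and 415 CPM against 46.7 and 37.6, with a UMI in 204 and 176 members. Cdkn2a (1.66 and 1.63, and 2.64 and 3.21 without the collagen-rich barcodes), Cdkn1a (1.36 and 1.15), Eda2r (1.20 and 1.15, and 1.83 and 1.84 without those) and Ccng1 (1.03 and 1.00) were also higher, and Gdf15, a stress cytokine, was lower (-3.55 and -1.59). Of 17 genes of antigen presentation and interferon response, 4 were higher, among them Ifit3 at 165 and 118 CPM against 2.84 and 2.63, Ifit1 and Irf7. The MHC class II genes, which AEC2s are known to express, did not reach a fold of 2, with H2-Ab1 at 0.65 and 0.44 and Cd74 at 0.81 and 0.63. Early response genes, which dissociation can raise, were near level over the list (-0.26 and -0.14), and 3 of 16 were higher, Gadd45b (2.58 and 2.65), Ier3 (1.86 and 2.02) and Dusp1 (1.60 and 1.57).

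**Figure D4:**
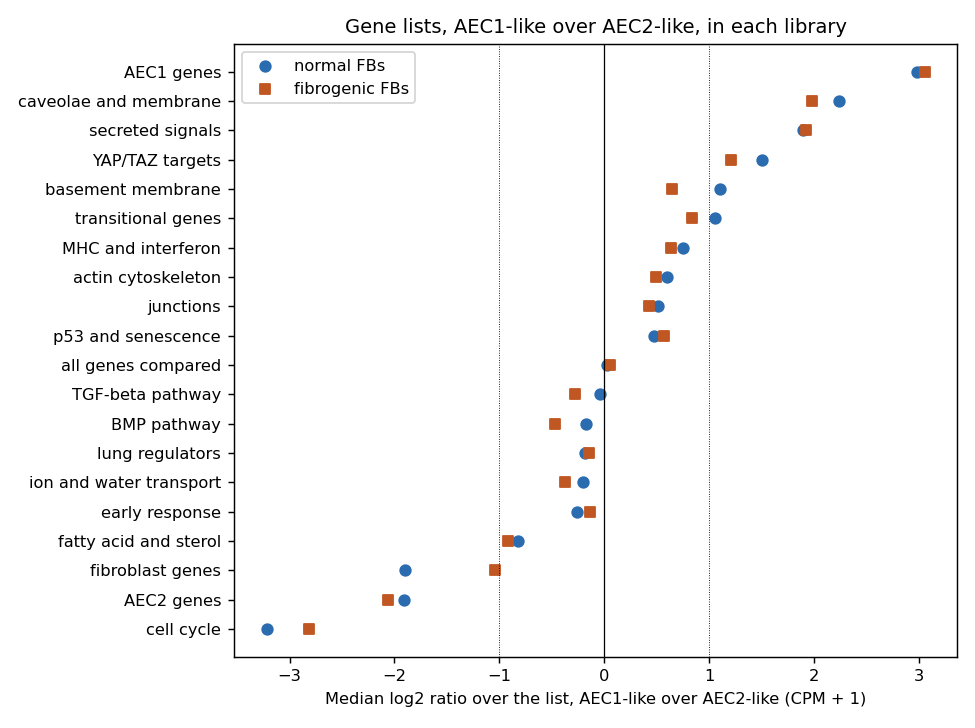
Median log2 ratio of AEC1-like over AEC2-like barcodes (CPM + 1) over the compared genes of each list, for the normal (blue circles) and fibrogenic (orange squares) library; genes of the selection rule were left out of the AEC1, AEC2, transitional and cell cycle lists, and dotted lines mark a fold of 2. The AEC1, caveolae and secreted signal lists lie highest and the cell cycle and AEC2 lists lowest in both libraries, beside a median near 0 for all genes.

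Outside the lists, the genes with the highest ratios in both libraries were led by Sec14l3, a lipid transfer protein, at 243 and 210.4 CPM against 2.35 and 2.48. Fbln5, an elastic fibre protein, stood at 606 (589 to 624) and 714 (694 to 735) CPM against 14.2 and 25.9, with 34.1 and 61.1 CPM in FB barcodes, below the AEC1-like level. Ndnf, a secreted neurotrophic protein, stood at 715 and 703 CPM against 26.0 and 15.4. Ankrd34b, Plb1, Wfdc1, Ifit3b, 2210011C24Rik and 2410004I01Rik were also among the 10 highest, with log2 ratios in the library nearer 0 between 3.95 and 4.42. The genes with the lowest ratios were Prr16 (-4.67 and -4.42), Dmkn (-4.41 and -4.39), Arg2 (-4.21 and -4.83), Cdc20, Cxcl3, Hmmr, Acoxl, Pf4, Mctp1 and Cxcl5. Arg2, a mitochondrial arginase, stood at 8.55 and 3.99 CPM against 176 and 141, and Cdc20 and Hmmr are genes of dividing cells.

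AEC1-like barcodes were also set against 194 and 234 transitional barcodes, which had Cldn4 and Sfn of at least 1000 CPM together and were not dividing. Of the 16 transitional genes other than Cldn4 and Sfn 13 were more than 2-fold lower in AEC1-like barcodes of both libraries, and of the 23 AEC1 genes other than Hopx 20 were more than 2-fold higher; over the 10976 genes compared, 8.2% were as much lower and 5.87% as much higher. These 16 transitional genes had a median log2 ratio of -2.60 and -2.80. AEC2 genes were also higher in AEC1-like than in transitional barcodes. Of 17 AEC2 genes other than Sftpc, 9 were more than 2-fold higher in both libraries and 0 lower. Their median log2 ratio was 1.01 and 1.52. Of the 16 YAP and TAZ genes 5 were more than 2-fold lower in AEC1-like than in transitional barcodes of both libraries, and 1 was higher. Of the 18 genes of p53 and senescence 6 were as much lower and 0 higher. Of the 22 actin cytoskeleton genes 11 were as much lower and 0 higher. The members still held more of some transitional genes than AEC2-like barcodes did. Of the 16 transitional genes 7 were more than 2-fold higher in both libraries and 1 lower, beside 5.53% and 7.02% of all genes. Areg, another transitional gene, ran lower, with log2 ratios of -1.77 and -1.49 without the collagen-rich barcodes. Krt7 stood at 958 and 993 CPM against 211 and 182, S100a6 at 2042 and 2409 CPM against 379 and 607 and Krt19 at 608 and 534 CPM against 225 and 155, while Krt8 was near level with log2 ratios of 0.17 and 0.45. Without the collagen-rich barcodes S100a6 had 88.5 and 141 CPM in AEC2-like barcodes, and its log2 ratio moved from 2.43 and 1.99 to 4.42 and 4.08. Cldn4, on which members were limited, was at 33.3 and 69.2 CPM in them. Of the transitional barcodes 16 and 12 also met the AEC2-like rule.

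Few genes differed past a fold of 2 between AEC1-like barcodes of the 2 cultures. Of 10533 genes with at least 50 UMIs in members of both libraries together, 74 (0.703%) were more than 2-fold higher and 43 (0.408%) more than 2-fold lower with fibrogenic FBs. None of the 23 AEC1 genes other than Hopx passed a fold of 2, and their median log2 ratio of fibrogenic over normal was -0.05, beside 0.05 for all genes. Hopx, which chose the members, stood at 2574 and 2644 CPM. Ager stood at 4944 and 4706 CPM, Clic5 at 784 and 734 CPM, Aqp5 at 1893 and 1883 CPM and Cldn18 at 2886 and 3327 CPM. The counting intervals of 6 of the 23 AEC1 genes did not overlap and were lower with fibrogenic FBs (4.34% of all genes). Those of 3 were higher (6.73%). Such intervals narrow as UMIs rise, so genes with many UMIs, such as Ager, pass more readily. The shares over all genes, taken from 50 UMIs upward, are therefore not like for like. The lower ones were Ager, Clic5, Timp3, Ahnak, Cav1, at 60.9 (55.6 to 66.5) and 43.5 (38.7 to 48.8) CPM, and Cryab, a small heat shock protein, at 635 (618 to 653) and 504 (487 to 521). The higher ones were Cldn18, Sema3e and Akap5, at 851 and 921 CPM. For Ager the direction held for summed UMIs and not for the median over members. That median, given above, was higher with fibrogenic FBs. Over the AEC2 genes other than Sftpc the median was -0.18, with Cxcl15 the only gene past a fold of 2, at 989 and 438 CPM; its AEC2-like level was 10314 and 7065 CPM.

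Of 9 genes furthest above in the fibrogenic library, 8 were higher in FB barcodes than in AEC1-like ones. The share of all genes for which this held is not given here. Fbln1, an extracellular matrix protein, stood at 1.76 and 29.0 CPM in AEC1-like barcodes, a log2 ratio of 3.44 (counting interval of the ratio 2.88 to 3.97), and FB barcodes had 148 and 262 CPM. The chemokines Ccl2 (1.38 and 17.2 CPM) and Ccl7 (0.629 and 10.2 CPM), Tnfsf8, Cygb, the cytokine Il11, Inmt and Cck were the others, with fibrogenic FB barcodes at 56.7 CPM or more of each. Sprr1a, an envelope protein of stressed epithelia, was the exception among these 9, at 5.53 and 38.2 CPM with 1.57 and 5.02 in FB barcodes, but transitional barcodes had 579 and 672. Of the 10 listed FB genes, 7 had enough UMIs, 4 of these (Col1a1, Col1a2, Dcn and Mfap4) passed a fold of 2 upwards (0.703% of all genes), and the median log2 ratio was 1.16 in AEC1-like and 0.12 in AEC2-like barcodes. Their summed level was 2402 and 3107 CPM in members, mostly from Sparc, and 16151 and 16445 in FB barcodes. None of the 10 was at 0. Without the collagen-rich members the list's median fell to 0.28, with Col1a1 at 28.3 and 34.02 CPM, Col1a2 at 27.0 and 32.3 and Mfap4 at 2.28 and 2.86, all under a fold of 2, and Dcn at 2.82 and 7.79.

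In each library 6 members had 1000 or more CPM of the fibrillar collagens Col1a1, Col1a2 and Col3a1 together, the limit that defined FB barcodes. The median over members was 44.8 and 92.5 CPM. One fibrogenic member, with 126936 UMIs, 9060 CPM of collagen and Hopx at 1016 CPM, held more UMIs than any other member for 25 of the 74 higher genes. Without the 12 members with collagen, 35 genes were higher and 36 lower in the fibrogenic library, of which 25 (33.8% of the 74 and 71.4% of the 35) and 30 (69.8% of the 43 and 83.3% of the 36) were shared with the full set. Fbln1 then had a log2 ratio of 1.96 on 3 and 28 UMIs and Ccl7 of 1.55 on 2 and 17. Cck had 2.62 on 9 and 79 UMIs, Ccl2 0.93 and Inmt 0.33. Sprr1a, at 2.60, hardly moved when they were left out, though 1 barcode held 125 of its 258 UMIs. When each gene was taken without the barcode that held most of its UMIs in each library, 54 of the 74 and 34 of the 43 remained past a fold of 2. Without the 15 and 13 members with Lyz2 of at least 1000 CPM, 121 genes were higher in the fibrogenic library.

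Several interferon-stimulated genes were lower in AEC1-like barcodes of the fibrogenic library. Isg15, a ubiquitin-like protein, stood at 102 (95.2 to 109) CPM with normal and 31.2 (27.1 to 35.7) with fibrogenic FBs, Irf7, the regulator of type I interferon, at 14.8 and 6.36 CPM, and Ifit1 at 31.7 and 15.2 CPM. These 3 of 17 genes passed a fold of 2 (0.408% of all genes), Ifit3 (165 and 118 CPM) and Bst2 (229 and 156 CPM) did not, and the list's median was -0.22. Outside the lists, Ifi27l2a (30.9 and 1.18 CPM) and Ifi44 (9.81 and 2.07 CPM) were among the 10 lowest. The difference was spread over members unevenly. Isg15 was detected in 103 and 74 members with a 90th percentile of 170.1 and 69.4 CPM, its highest member held 91 and 18 of 812 and 211 UMIs, and without that member in each library the log2 ratio was -1.64. Ifi27l2a was detected in 20 and 8 members and had a ratio of -3.55 without its highest. In AEC2-like barcodes Isg15 stood at 26.6 and 16.1 CPM and in FB barcodes at 108 and 131.

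Some of the 10 lowest genes rested on single barcodes, and 1 normal member of 123900 UMIs held the most UMIs of 7 of the 43 lower genes. One normal member held 49 of the 54 UMIs of Des (desmin), 51 of the 54 of Cubn, 58 of the 78 of Arhgef4, 39 of the 51 of Tslp and 149 of the 241 of Adm, in each case the one highest for that gene. Hdc, which makes histamine, stood at 19.0 and 3.85 CPM and in AEC2-like barcodes at 232 and 123, and St6galnac3 at 16.98 and 3.40 CPM. Eln (elastin) stood at 14.8 and 3.70 CPM, and in FB barcodes at 283 and 71.2. Some listed genes not yet named for the contrast between the cultures also passed a fold of 2. Gdf15 (3.14 and 19.97 CPM), the chemokine Cxcl12 (16.7 and 78.6 CPM), Msln (36.7 and 85.7 CPM) and Tpm2 (41.2 and 90.5 CPM) did so upwards. Fabp5 (631 and 254 CPM), Tagln (71.1 and 29.4 CPM) and Fst (15.6 and 2.22 CPM) did so downwards. Without the collagen-rich members Tagln stood at 9.25 and 22.9 CPM and Fst at 0.670 and 1.27, and neither was then lower with fibrogenic FBs. Tpm2 then stood at 24.8 and 84.9 CPM, a wider difference than over all members, and Cxcl12 at 8.05 and 19.6, a narrower one. Cxcl12 and Tpm2 had 957 and 633 CPM in fibrogenic FB barcodes, 1 fibrogenic member held 37 of 135 Gdf15 UMIs, and 1 normal member held 72 of the 124 Fst UMIs.

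**Figure D5:**
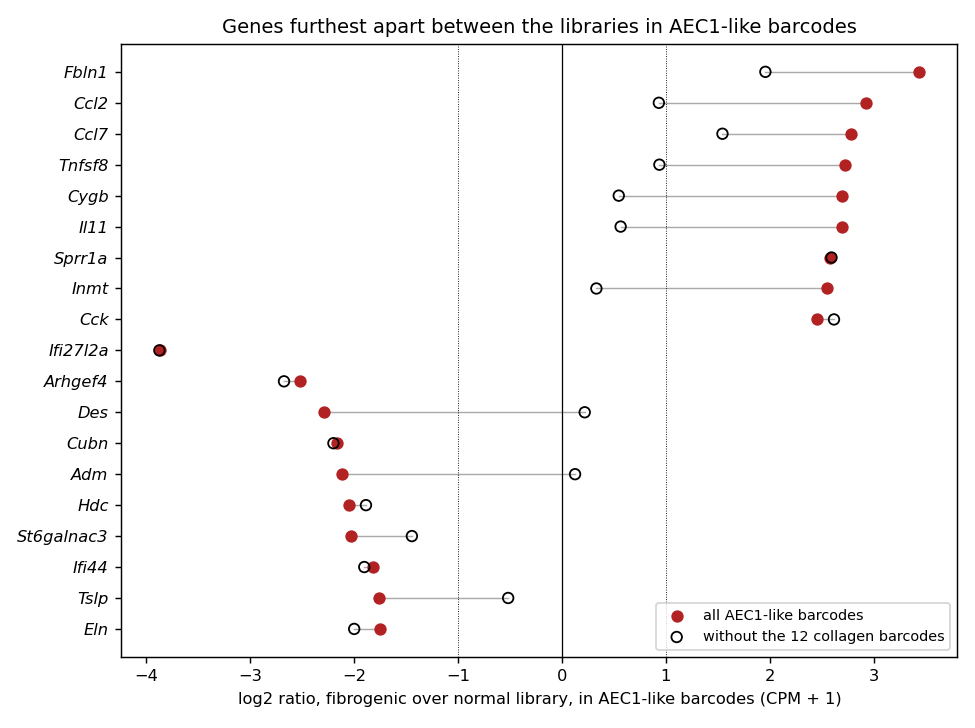
Log2 ratio of the fibrogenic over the normal library in AEC1-like barcodes (CPM + 1) for 9 of the highest and the 10 lowest genes outside the lists, over all members (red) and without the 12 members with high collagen (open circles); dotted lines mark a fold of 2. Ccl2, Tnfsf8, Cygb, Il11 and Inmt drop below a fold of 2 without those members and Des and Adm cross to just above 0, while Sprr1a, Cck and Ifi27l2a stay past it.

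A few genes that differed between the cultures in AEC2-like barcodes also did so in AEC1-like ones; 14 genes (0.133%) were higher and 3 (0.0285%) lower past a fold of 2 in both classes, and in AEC2-like barcodes 0.247% of genes were higher and 0.0761% lower. Of the 14 higher genes 13, among them Fbln1, Ccl7 and Tnfsf8, stood higher in fibrogenic FB barcodes than in AEC1-like ones. Here too the share of all genes is not given. When the collagen-rich barcodes of both classes were left out, 10 genes were higher and 1 lower past a fold of 2 in both classes. Of the 10, Crym and Vcam1 were among the first 14, and the lower gene, Phgr1, was among the first 3. Crym, a thyroid hormone binding protein, stood at 160.1 (151 to 169) and 333 (319.7 to 347) CPM in AEC1-like and at 11.4 and 55.3 in AEC2-like barcodes. It was detected in 68 and 74 members. Most members of either library had no UMI of Crym, which does not show that they lacked the RNA. Phgr1 was lower past a fold of 2 in both classes, at 59.5 and 22.9 CPM in AEC1-like and at 109.9 and 35.3 CPM in AEC2-like barcodes. Plac8 passed a fold of 2 in AEC1-like barcodes (11.7 and 34.9 CPM) and not in AEC2-like ones (log2 0.81), and without the collagen-rich barcodes it stood at 2.82 and 4.93 CPM in AEC1-like barcodes.

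Markers of other cell types were sparse in AEC1-like barcodes. Of 10 airway markers 5 had no UMI in any member, and the summed level of the list was 10.1 and 6.95 CPM, mostly Cyp2f2, with the basal cell marker Krt5 and the secretory marker Scgb3a2 at 0. Of 7 endothelial markers 4 were at 0, among them Kdr and Cldn5, and of 16.9 and 14.8 CPM in all, Egfl7 made up 16.1 and 13.6, below its AEC2-like level. Of 8 leukocyte markers 4 were at 0, among them Ptprc and Marco. The sum was 7.80 and 9.62 CPM, against 7.27 and 7.37 in AEC2-like barcodes. Of the 2 leukocyte markers with enough UMIs, 1 was more than 2-fold higher in both libraries (5.53% of all genes). Without the collagen-rich barcodes of both classes Csf1r stood at 4.56 and 6.99 CPM against 0.750 and 1.06. Cd68 then stood at 3.62 and 3.02 CPM against 5.94 and 5.82. Of 5 mesothelial markers 4 were at 0, Wt1 and Upk3b included. Msln, mesothelin, stood at 36.7 and 85.7 CPM against 2.80 and 5.40 and was detected in 53 and 48 members. Transitional barcodes had more Msln, with a log2 ratio of AEC1-like over transitional barcodes of -2.69 and -1.95. Most genes of the FB list were lower in AEC1-like than in AEC2-like barcodes. Of 9 genes 5 were lower past a fold of 2 in both libraries (7.02% of all genes). The list's median log2 ratio was -1.90 and -1.04, and this median turned to 0.69 and 0.19 without the collagen-rich barcodes of both classes. Of the same 9 genes 1 was higher, Sparc, a matrix protein (1.23 and 1.35, and 2.40 and 2.35 without those barcodes). With it the summed level of the list was 2402 and 3107 CPM in AEC1-like and 2008 and 2261 in AEC2-like barcodes.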

How the data were processed

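The authors deposited raw UMI counts per gene and barcode for 6 droplet libraries. According to the submitters' processing notes these came from Cell Ranger 3.0.1 with the mm10 genome, and Seurat 3 was used downstream; the gene annotation used for the organoid libraries is not given in the sources used here. The counts of the 2 organoid libraries (211680702 UMIs with normal and 238618743 with fibrogenic FBs) were analysed here, and the 4 libraries of sorted lung cells served only to count barcodes that met the rule. UMI counts were summed over the barcodes of a class and divided by the summed total (CPM). Ratios used a pseudocount of 1 CPM and genes with at least 50 UMIs in the classes compared (for AEC1-like over AEC2-like, in each library), and a gene was counted as higher or lower past a fold of 2. With 1 library per condition no test was run. Levels have exact Poisson and shares exact Clopper-Pearson 95% intervals; a ratio's interval is the exact conditional binomial one, with the pseudocount added as to the ratio. Doublets were not called. The calculations were tested on simulated data. Named genes are those at the top or bottom of each list, and, outside the lists, the 10 highest and 10 lowest ratios of a contrast (by the library nearer 0 where there are 2); other genes named within a list were chosen with their values known. A few genes that the rule selects are not reported here. The members and lists were chosen with earlier results of these data known. Alternatives changed each limit of the rule, the pseudocount, the gene minimum and the scaling. Python 3.11.15, numpy 2.4.6, scipy 1.17.1, pandas 2.3.3 and matplotlib 3.10.9 were used.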

Additional observations from a re-analysis of the deposited data

Results flagged for a closer look

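In 3 genes the ratio of AEC1-like over AEC2-like barcodes passed a fold of 2 in opposite directions in the 2 libraries; with 1 library per condition the difference was not tested. Inmt, a methyltransferase of FBs, had log2 ratios of -1.04 with normal and 1.03 with fibrogenic FBs, and of 0.38 and 0.29 without the collagen-rich barcodes of both classes. Ifi27l2a, an interferon-stimulated gene, had 2.12 and -1.92, with a UMI in 20 and 8 AEC1-like barcodes. Bdkrb2, a bradykinin receptor, had -2.05 and 1.25; its normal AEC1-like barcodes had 0 UMIs and the fibrogenic ones 38, so the first value depends on the pseudocount.

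The AEC1-like rule was also met by 2 barcodes in the library of sorted GFP+ lung cells after repetitive bleomycin, which no comparison here uses. That library had 38 epithelial barcodes of 10737, and the other 3 lung libraries had 0 AEC1-like barcodes.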

How the results depend on the processing

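No replicates exist, so a difference between the cultures cannot be told apart from a difference between libraries, and the intervals cover counting error only. No paired analysis was possible because each condition is 1 library. The share of AEC1-like barcodes (normal and fibrogenic) was 13.5% and 14.0% with a Hopx minimum of 500 CPM and 6.68% and 7.25% with 2000. It was 5.82% and 6.10% with Sftpc also held below 20000. With Cldn4 and Sfn below 500 the shares were 9.52% and 9.31%. Among barcodes with collagens below 1000 they were 11.8% and 13.2%. Genes higher past a fold of 2 with fibrogenic FBs numbered 35 without collagen-rich barcodes, 43 with a pseudocount of 5 CPM and 12 among genes with at least 500 UMIs, and lower ones 16 and 7 in the latter 2 settings. Genes past a fold of 2 between AEC1-like and AEC2-like barcodes in both libraries numbered 731 higher and 928 lower in the main setting. They numbered 468 lower with 5 CPM, and 457 higher and 540 lower with at least 500 UMIs. The minimum of 500 UMIs also left fewer genes to compare, so its counts are not shares of the same genes. The following settings were chosen after seeing the data: members of at most 60000 UMIs gave 38 higher and 27 lower genes with fibrogenic FBs, and members with Lyz2 below 1000 CPM 121 higher. The FB list's median reversed, to 0.69 and 0.19, without collagen-rich barcodes. Of the other values compared over the settings, 362 stayed within the list's median counting interval (or the share's interval), 10 of them with a change of sign near 0, and 65 did not. The sign changed in 4 of the 65. The median of ion and water transport genes turned to 0.43 and 0.57 among genes with at least 500 UMIs, and with members of at most 60000 UMIs the medians of fibrogenic over normal turned to 0.08 for fatty acid and sterol genes and to 0.01 for AEC2 genes.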
